A study of Mus musculus with 3 samples.

Results

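The genes described here encode cell-surface and secreted guidance cues and their receptors: Eph receptors and ephrins, semaphorins with plexins and neuropilins, Slits with Robos, and netrins with Unc5 receptors and Dcc. The rule used gene symbols and no measured value, though it was written with earlier results of these data known. On the Affymetrix Mouse Genome 430 2.0 array 151 probe sets with a single symbol matched, for 68 genes, out of 45101 probe sets and 18193 named genes in all. Total RNA came from undifferentiated F9 cells, an established mouse embryonal carcinoma line kept on gelatin-coated plastic in serum-containing medium, with no treatment and no genetic change named in the labels. The 3 arrays, replicates 1 to 3, form 1 group, so there is no comparison between conditions. The question that could be asked was which guidance genes lay above the arrays' own background. Nothing in the labels ties the 3 RNA preparations to separate cultures. The p-values therefore reflect array-to-array spread, and this spread may be technical.

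Guidance cues steer growing axons and migrating cells by attraction or repulsion, and also shape vessels and epithelia. Ephrins are membrane-bound ligands of the Eph receptor tyrosine kinases and signal in both directions where cells touch: A-type ephrins are held by a lipid anchor and mostly bind EphA receptors, and B-type ephrins span the membrane and mostly bind EphB receptors. Semaphorins act through plexins, with neuropilins as co-receptors for most secreted class 3 members. Slits act on Robo receptors, and netrins on Dcc, neogenin and the Unc5 family.

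A signal was read against a threshold set on each array at the 95th percentile of 126 probe sets whose genes have narrow expression (hair keratin-associated proteins and the receptors for smell, pheromones and taste). The threshold was a signal of 44.6, 46.1 and 43.2 on replicates 1, 2 and 3. "Above background" means that log2 signal minus log2 threshold exceeded 0 in limma's moderated test (one-sided, Benjamini-Hochberg adjustment over all probe sets, adjusted p threshold 0.05). A gene is represented by its brightest probe set, and a gene not above background is not thereby absent. Array signals depend on the probes, so no single gene's level is set against another's. Values are signals per array or means ± SD (n = 3). The label's cell type was checked first: 7 of 8 pluripotency markers were above background, beside 51.1% of named genes outside the background families. Among the 7 were Pou5f1 (Oct4), Sox2 and Nanog. Fut4, a fucosyltransferase of the SSEA-1 antigen, was not above background (15.1 ± 11.4). The median signal was 36.0 to 37.8 per array and the log2 signals of any 2 arrays correlated across probe sets at Pearson's r of 0.917 to 0.920, a description since probe sets are not independent replicates.

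Of the 68 guidance genes 25 (36.8%) were above background by limma's test, beside 51.1% of the 18080 named genes outside the background families. At the level of probe sets the count was 32 of 151 (21.2%), beside 45.2% of all single-symbol probe sets. The shares were close for ligands, with 13 of 35 genes (37.1%), and receptors, with 12 of 33 (36.4%). Of the 25 genes, 10 kept the call under every alternative tried: Epha2, Ephb3, Ephb4, Efna4, Efnb1, Sema4a, Plxnb1, Plxnb2, Robo4 and Ntn1. Epha2, Ephb3, Ephb4, Efna4, Plxnb2 and Robo4 have a single probe set. Choosing by suffix or requiring every probe set could therefore not change their calls. The 90th percentile and the bacterial controls lower the threshold, which makes a call easier to keep. How many of all named genes above background kept the call under every alternative was not counted, so the 10 have no share beside them. Under other settings the count went from 11 to 36 of the 68. It moved in the same direction as the share of all genes, and the size of the moves was not compared. At the 90th percentile it was 28 (beside 53.4% of all genes), at the 99th 20 (46.3%), and against bacterial control probe sets 36 (60.5%). With the probe set chosen by suffix it was 17 (43.3%), and when every probe set had to pass 11 (31.3%). An intensity trend in the variance prior gave 27 (52%). The count was 21 (48.1%), 22 (48.4%) and 22 (48.6%) without replicate 1, 2 or 3. Of guidance probe sets, 54 passed against bacterial controls, beside 55.6% of all. The median over all 68 was -0.18 log2 units from the threshold, beside 0.72 over all named genes, a description of the lists since probes differ. In RNA from a whole culture, fewer cells that express a gene and less RNA per cell cannot be told apart.

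**Figure D1:**
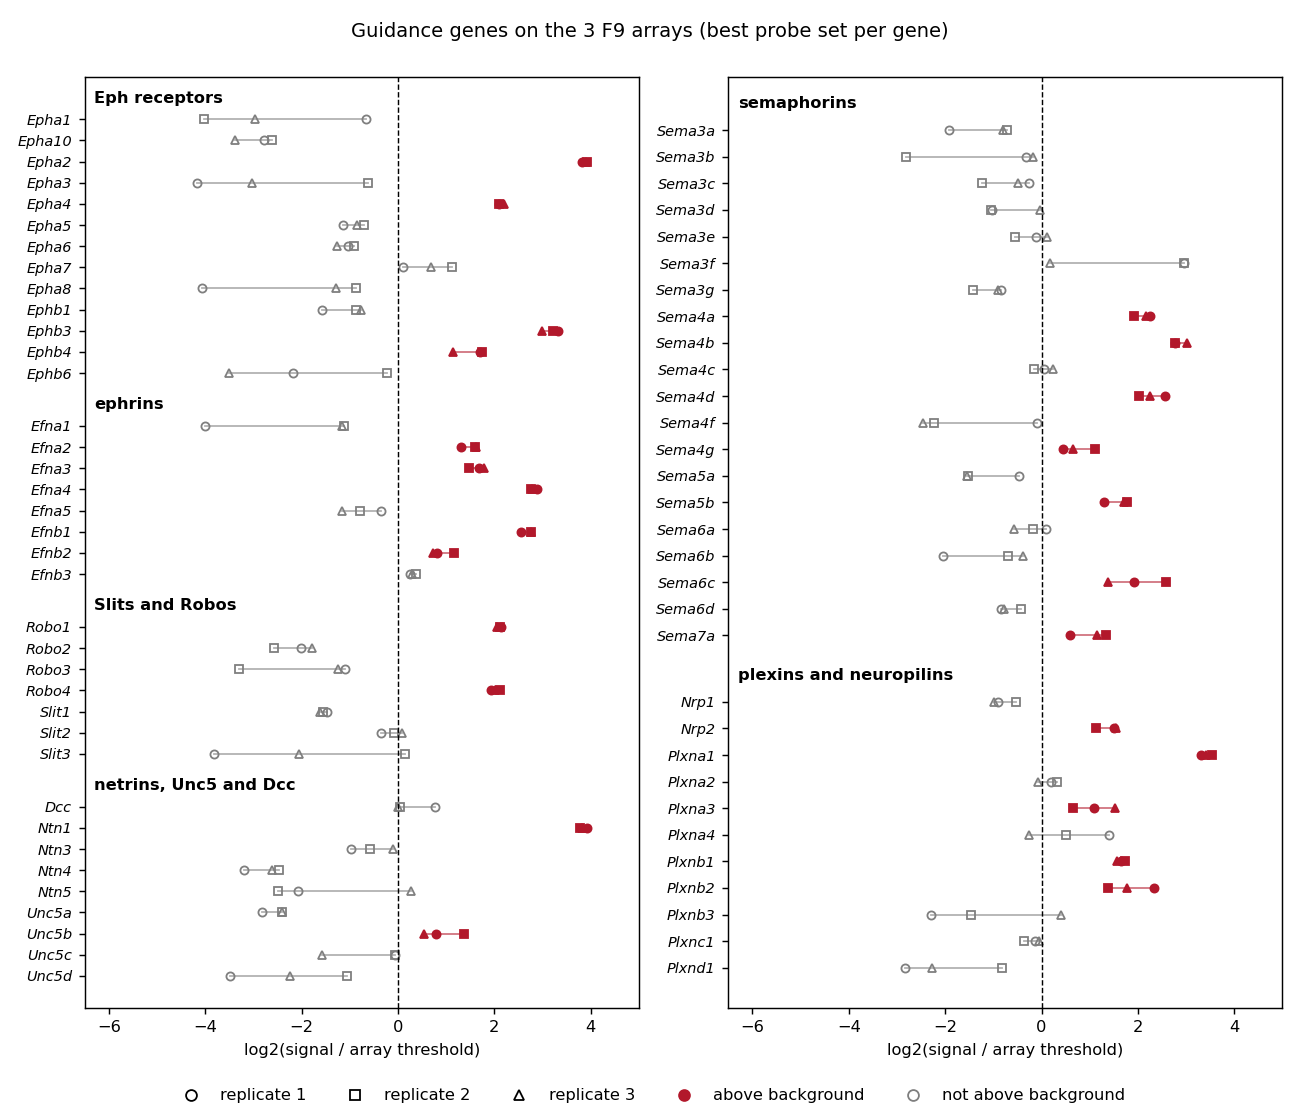
Log2 ratio of signal to array threshold (x axis) for each guidance gene's brightest probe set (y axis, grouped by family); symbols mark the 3 arrays, filled red points genes above background and open grey points the others, and the dashed line is the threshold. The 25 red genes sit to the right of the line on all 3 arrays, and Sema3f has 2 arrays near 3 and replicate 3 close to 0.

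**Figure D2:**
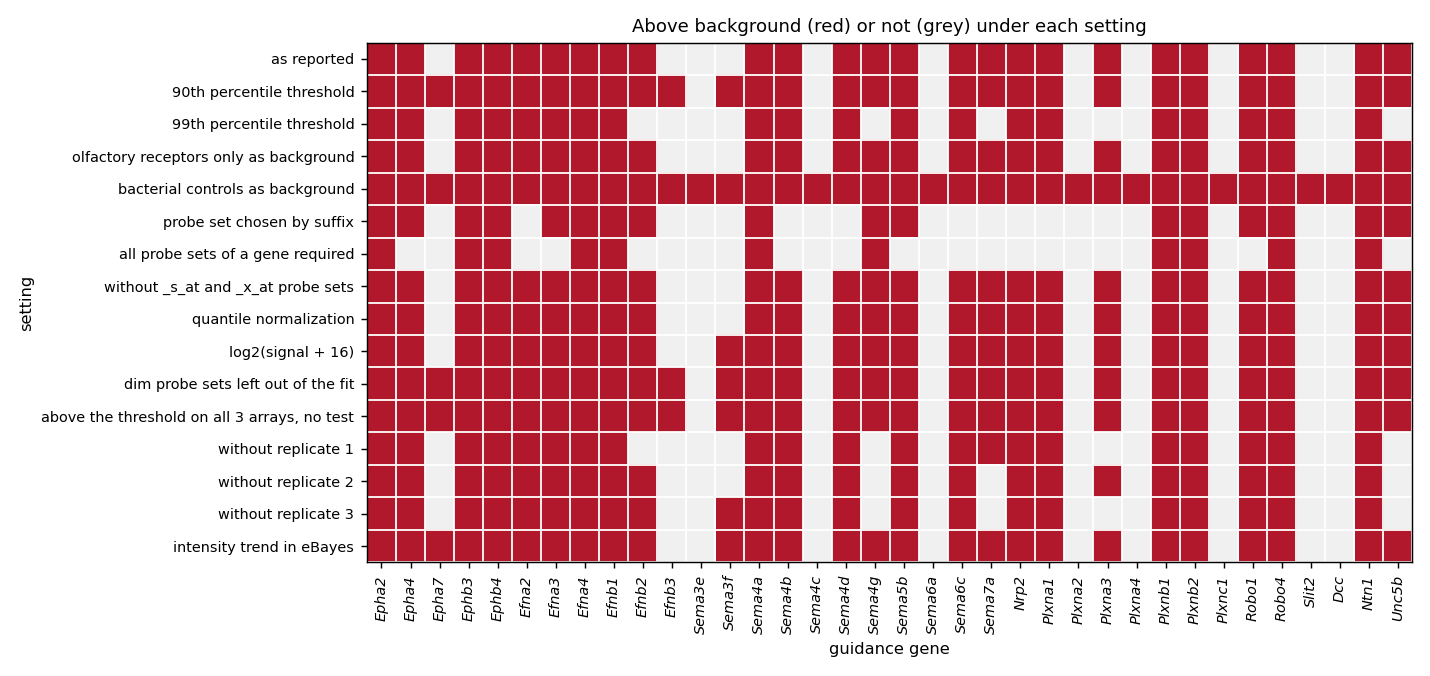
Calls of the 36 guidance genes that were above background under at least 1 setting (x axis) under each setting (y axis); red is above background and grey is not. Columns red throughout mark the 10 genes that kept the call, and the row that requires all probe sets of a gene holds 11 genes.

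Of the 13 Eph receptor genes measured, 4 (30.8%) were above background, beside 51.1% of all named genes. Epha2, a receptor of A-type ephrins, had signals of 633, 695 and 648 on replicates 1, 2 and 3, which is 3.88 ± 0.11 (SE) log2 units over the threshold (limma adjusted p = 0.000128). All 3 arrays were high and close together. Epha4, which can bind ephrins of both types, had signals of 190, 198 and 199 (2.13 log2 units, limma adjusted p = 0.000404). Of the EphB receptors, Ephb3 stood at 443, 429 and 343 (3.17 log2 units, limma adjusted p = 0.000241). Ephb4, known for its role at the arterial and venous boundary, stood at 146, 155 and 94.9 (1.53 log2 units, limma adjusted p = 0.00445). For both, replicate 3 was the lowest array and still lay over its threshold.

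Epha7 did not pass, though its signals of 48.1, 101 and 69.4 were above the threshold on all 3 arrays (0.64 log2 units, limma adjusted p = 0.102). It passed under 5 of the alternatives, among them the 90th percentile threshold (limma adjusted p = 0.0333) and a variance prior that follows intensity (0.0236). The other EphA genes, Epha1, Epha3, Epha5, Epha6, Epha8 and Epha10, were below the threshold on every array, with mean signals from 6.03 (Epha10, a receptor with an inactive kinase domain) to 24.2 (Epha5). Ephb1 (21.8 ± 6.02) and Ephb6 (17.7 ± 19.1), the latter also lacking kinase activity, were below it as well. No probe set carried Ephb2 as its single symbol, so that gene was not measured here.

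The ephrins had the largest share above background among the 6 families, 5 of 8 genes (62.5%, beside 51.1% of all named genes). Of their probe sets 7 of 17 passed (41.2%, beside 45.2% of all single-symbol probe sets). When every probe set had to pass, 2 ephrin genes were left, beside 31.3% of all named genes. The difference from the other families was not tested. In the A-type group Efna4 stood at 331, 312 and 298 (2.81 log2 units, limma adjusted p = 0.000222), Efna3 at 144, 128 and 150 (1.65 log2 units, 0.00123) and Efna2 at 110, 140 and 133 (1.51 log2 units, 0.00176). Each was well over the threshold on every array. Efna1 (14.5 ± 10.2) and Efna5 (27.0 ± 7.83) were below it on every array. Efna1, Efna3 and Efna4 are direct neighbours in the mouse gene table, with no other protein-coding gene between them, so the call differed within this row of related genes.

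Of the B-type ephrins, Efnb1 was the clearest, with signals of 263, 314 and 292 (2.69 log2 units, limma adjusted p = 0.000282) and all 3 of its probe sets above background. Efnb2, a ligand of Ephb4, stood at 78.2, 104 and 71.3 (0.90 log2 units, limma adjusted p = 0.0106), but only 1 of its 4 probe sets passed, and the call was lost without replicate 1 (limma adjusted p = 0.0538). Efnb3 had signals of 53.2, 59.4 and 53.1, all slightly over the threshold, and did not pass (0.31 log2 units, limma adjusted p = 0.0769). Members of both Eph classes and of both ephrin classes were thus measured above background in the same RNA.

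Among the 20 semaphorin genes 7 (35%) were above background, beside 51.1% of all named genes. The classes are small, and their difference in count was not tested. None of the 7 secreted class 3 genes passed limma's test. Before adjustment 1 of them, Sema3f, was under 0.05, and it alone lay over the threshold on each array. Sema3f is the member with the widest spread among the bright ones: replicates 1 and 2 read 349 and 357 and replicate 3 read 48.9 (2.03 log2 units, limma adjusted p = 0.0822). It passed under 7 of the 15 alternatives, among them the run without replicate 3 (2.96 log2 units, limma adjusted p = 0.00444) and the 90th percentile threshold (0.0357). Its value comes from an _x_at probe set, a kind whose probes may match other transcripts, while its other 2 probe sets had means of 16 and 5.30. The part of cross-matching in this value was not tested. Sema3a, Sema3b, Sema3c, Sema3d and Sema3g were below the threshold on every array, with means from 21.5 to 29.2. Sema3e (41.3, 31.4 and 46.9) lay at -0.18 log2 units. Sema3a and Sema3d, direct neighbours in the gene table, were alike in call.

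The membrane-bound class 4 semaphorins had 4 of 6 genes above background (66.7%, beside 51.1% of all named genes). Sema4b stood at 304, 313 and 350 (2.85 log2 units, limma adjusted p = 0.000285), and Sema4d, a ligand of plexin-B1 also known from lymphocytes, at 264, 186 and 207 (2.28 log2 units, 0.000987). Sema4a had signals of 212, 175 and 194 (2.11 log2 units, limma adjusted p = 0.000661) and both its probe sets passed. All 3 genes were high on every array. Sema4g was near the threshold at 61.0, 98.9 and 67.9 (0.73 log2 units, limma adjusted p = 0.0326), and with any 2 of the replicates it no longer passed (limma adjusted p from 0.0628 to 0.116). Sema4c (46.4, 41.2 and 51.0) was at the threshold with 0.05 log2 units (limma adjusted p = 0.871), and Sema4f (19.9 ± 19.2) below it on every array.

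In the remaining classes, Sema5b stood at 110, 159 and 141 (1.60 log2 units, limma adjusted p = 0.0024), and Sema5a (21.1 ± 9.78) was below the threshold on every array. Sema6c had signals of 169, 276 and 112 (1.96 log2 units, limma adjusted p = 0.00803), with replicate 2 highest and replicate 3 lowest. Sema6a (47.3, 40.6 and 29.2) lay at -0.22 log2 units, and Sema6b (24.0 ± 11.6) and Sema6d (28.1 ± 5.34) lower. Sema7a, a semaphorin with a lipid anchor that signals through integrins, read 67.5, 117 and 96.5 (1.03 log2 units, limma adjusted p = 0.0176). Leaving out replicate 2 ended the call, as did leaving out replicate 3 (limma adjusted p = 0.0772 and 0.0946), and its other probe set had a mean signal of 3.05.

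On the receptor side of the semaphorins, 4 of 9 plexin genes and 1 of 2 neuropilin genes were above background. Together this is 5 of 11 genes (45.5%), beside 51.1% of all named genes. Plxna1 stood at 443, 535 and 461 (3.42 log2 units, limma adjusted p = 0.000173), high on every array. Plxna3 read 94.4, 72.6 and 124 (1.09 log2 units, limma adjusted p = 0.0192) and no longer passed when replicate 1 was left out (0.0861) or replicate 3 (0.0595). The receptors of class 4 semaphorins Plxnb1 (140, 153 and 128, 1.65 log2 units, limma adjusted p = 0.000837) and Plxnb2 (224, 120 and 148, 1.83 log2 units, 0.00546) passed. Nrp2, a co-receptor for class 3 semaphorins, read 127, 102 and 125 (1.4 log2 units, limma adjusted p = 0.00283). Its relative Nrp1 did not pass with any of its 4 probe sets, and the brightest, at 25.9 ± 5.37, was below the threshold on every array.

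Plxna4 did not pass: its 3 arrays read 118, 65.5 and 36.1, on both sides of the threshold (0.55 log2 units, limma adjusted p = 0.300). Plxna2 (51.1, 57.8 and 41.2) lay at 0.15 log2 units and Plxnc1 (40.7, 35.7 and 41.8) at -0.18. Plxnb3 was over the threshold on replicate 3 alone (9.10, 16.7 and 57.1). Plxnd1, a receptor known from blood vessels, was below it on every array at 13.8 ± 10.8. With the probe set chosen by suffix, Plxna1 (0.04 log2 units, limma adjusted p = 0.998), Nrp2 (0.53 log2 units, 0.0872) and Plxna3 (0.62 log2 units, 0.189) no longer passed.

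Of the Robo receptors 2 of 4 were above background, and of the Slits 0 of 3. Together this is 2 of 7 genes (28.6%), beside 51.1% of all named genes. Robo1 stood at 196, 199 and 180 (2.10 log2 units, limma adjusted p = 0.000399), and Robo4 at 171, 201 and 173 (2.02 log2 units, 0.000517). Both were tight across arrays. Each has a direct neighbour of the same family in the gene table that did not pass: Robo2 beside Robo1 (10.5 ± 2.46) and Robo3 beside Robo4 (14.6 ± 8.70). The ligand Slit2 lay just under the threshold (34.8, 43.5 and 45.6, -0.12 log2 units). Slit1 was lower (15.3 ± 1.04), and Slit3 exceeded the threshold on replicate 2 alone (3.14, 51.1 and 10.4). None of the 3 Slit genes had an unadjusted limma p under 0.05.

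Robo4 is known as a receptor of endothelial cells, so the 9 markers of that cell type are given beside it. Of these, 2 were above background, Esam (412 ± 29.6) and Pecam1 (249.96 ± 38.3), and 7 were not, including Cdh5 (48.7 ± 25.1), Kdr (44.0 ± 4.52), Tek (24.7 ± 6.28), Vwf (17.8 ± 9.42) and Tie1 (1.61 ± 0.451). Their summed signal was 797 to 920 per array. For neurons 4 of 9 markers were above background, with summed signals of 2222 to 2316. For fibroblasts it was 1 of 9 (289.8 to 326), for extraembryonic endoderm 2 of 9 (1367 to 1639) and for macrophages 2 of 7 (239 to 289). Of all named genes 51.1% were above background. Most of the neuron sum came from Tubb3 (1048 ± 70.6) and Stmn2 (806 ± 13.7), and most of the endoderm sum from Sox7 (889 ± 106). Such sums follow a few bright probe sets and do not rank cell types. The part of other cell types in the guidance calls was not tested beyond these values.

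Ntn1, which encodes netrin-1, was among the clearest members, with signals of 681, 633 and 611 (3.84 log2 units, limma adjusted p = 0.000136), and both its probe sets passed. Ntn3 (31.1 ± 8.75) and Ntn4 (6.74 ± 1.71) were below the threshold on every array, and Ntn5 over it on replicate 3 alone (10.6, 8.20 and 51.8). Of the 5 netrin receptor genes 1 (20%, beside 51.1% of all named genes) passed limma's test. This was Unc5b, at 76.9, 119 and 62.8 (0.90 log2 units, limma adjusted p = 0.0305). With any 2 of the replicates it no longer passed (limma adjusted p from 0.0565 to 0.103), which left 1 gene of the 9 in this family, Ntn1. Dcc, the receptor for attraction, read 76.2, 47.6 and 43.1 (0.27 log2 units, limma adjusted p = 0.365), with replicates 2 and 3 at the threshold. Unc5a (7.69 ± 1.26), Unc5c (33.8 ± 16.7) and Unc5d (11.8 ± 9.44) were below it on every array. Neo1, which encodes the Dcc relative neogenin, had a signal of 268 ± 52.3 and passed (2.57 log2 units, limma adjusted p = 0.00101). Of its 5 probe sets 2 passed.

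The wider pathway was described with 79 genes for co-receptors, adaptors, regulators and effectors, of which 75 had a usable probe set. Of these 53 (70.7%) were above background by limma's test and 22 were not, beside the 51.1% of all named genes. Several probe sets stood for 61 of the 75, which gives more chances of a bright one. At the level of probe sets the count was 105 of 219 (47.9%), beside 45.2% of all single-symbol probe sets. By place in the pathway the counts were 3 of 9 surface and secreted partners of netrins and repulsive guidance molecules, 14 of 23 semaphorin and plexin partners, 17 of 23 Eph and ephrin partners, and 8 of 8 Slit and Robo partners. All 8 Slit and Robo partners have several probe sets. In 7 of them the probe sets lay on both sides of the call, and 17 of the 28 probe sets (60.7%) passed. The list mixes genes particular to guidance with widely used ones, and its count was not tested against other genes. By the naming rule, Neo1, Rgmb (119 ± 16.3), Gpc1 (144 ± 46.7) and Crmp1 (176 ± 22.4), a collapsin response mediator, passed. Only 2 of 5 probe sets passed for Neo1 and 1 of 6 for Rgmb, while Gpc1 and Crmp1 have 1 each. Rgma (20.4 ± 11.5), Draxin (23.7 ± 4.37), Dscam (42.5 ± 8.98) and Flrt1 (28.0 ± 12.1) did not. The GTPase-activating genes Srgap1 (75.5 ± 17.6), Srgap2 (347 ± 50.3) and Srgap3 (101 ± 1.4), which act under Robo and were chosen here after their values were seen, passed.

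**Figure D3:**
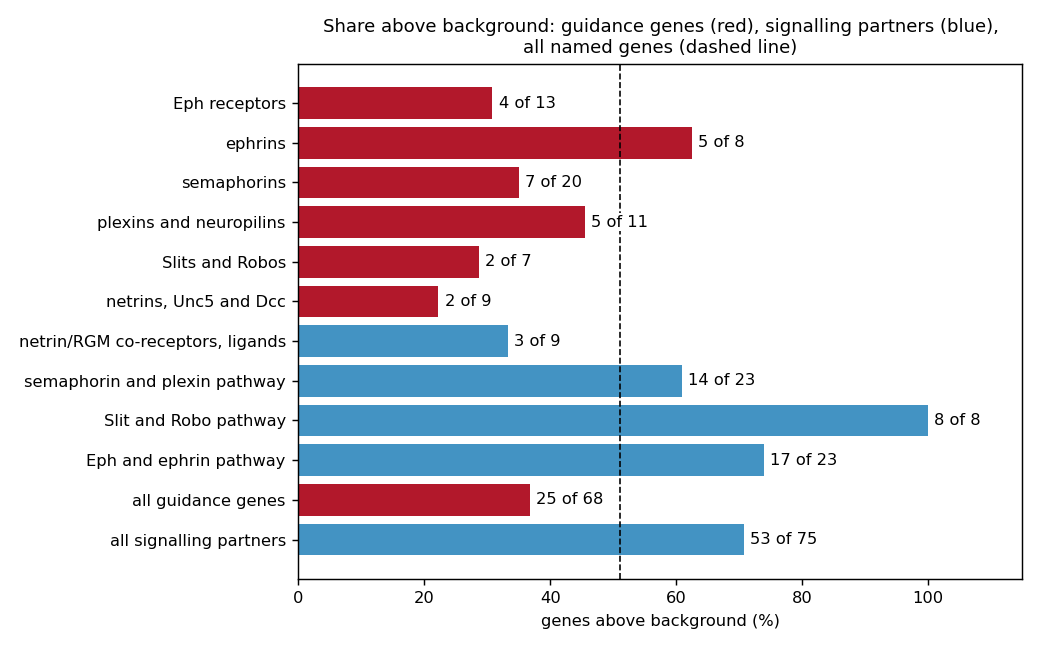
Percentage of genes above background (x axis) for each guidance family (red) and 4 groups of signalling partners (blue), with the totals of both lists at the foot, with counts beside the bars; the dashed line is the 51.1% of all named genes. The ephrins are the only guidance family past the line, with 5 of 8, and 3 of the 4 partner groups drawn are past it.

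Genes with more probe sets have more chances of a bright one, so the count was also read by the number of probe sets per gene. Over all named genes the share above background went from 36.1% with 1 probe set to 58.4%, 70.6% and 79.6% with 2, 3 and 4 or more. Among guidance genes it was 7 of 23 (30.4%), 11 of 22 (50%), 4 of 11 (36.4%) and 3 of 12 (25%). The gap was therefore widest among the guidance genes with most probe sets. The 9 of these that did not pass were Epha3, Epha5, Epha7, Sema3e, Sema5a, Sema6d, Nrp1, Plxna2 and Plxnc1, the last with 6 probe sets, and the 3 that passed were Epha4, Efnb2 and Nrp2.

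Probe sets of the same gene often disagreed. Of the 45 guidance genes with several, 14 (31.1%) had some probe sets above background and others not, beside 39.8% of all such genes. In 4 genes (8.89%, beside 26.4%) every probe set passed: Efnb1, Sema4a, Plxnb1 and Ntn1. In 27 (60%, beside 33.7%) none did. The disagreement could be wide. The Plxna1 probe sets had means of 480 and 46.8, those of Sema4b 322 and 33.9, and those of Robo1 192, 21.9 and 21.8. Epha4 had 3 probe sets above background (196, 168 and 95.6) and 2 that were not (45.3 and 1.76). Efna2 (128 and 26.4), Efna3 (141 and 51.9), Sema5b (137 and 44.8) and Plxna3 (97.0 and 73.2) each had 1 probe set above background and 1 not. The same held for Unc5b (86.1 and 54.8). For Sema4d the means were 219, 32.9 and 8.25, for Sema6c 186, 48.2 and 26.2, and for Nrp2 118, 66.2, 34.8 and 2.35. Which transcript ends or introns these probe sets cover was not analysed here.

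**Figure D4:**
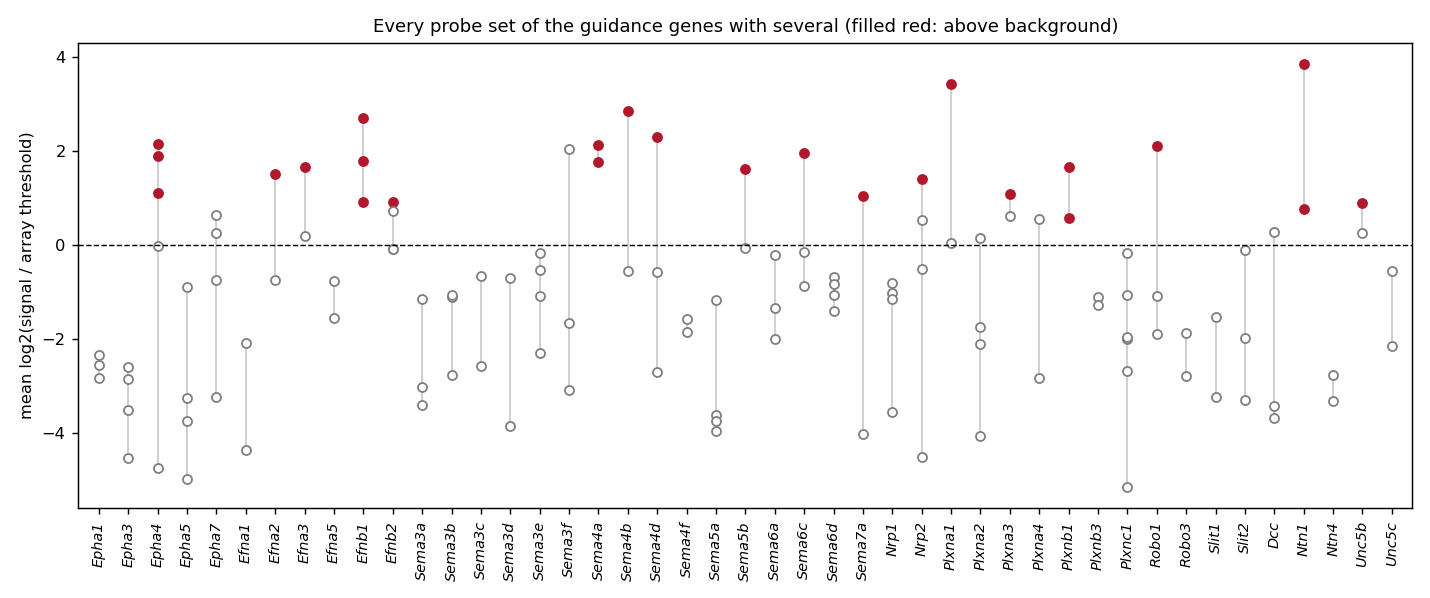
Mean log2 ratio of signal to array threshold (y axis) of every probe set of the 45 guidance genes with several (x axis); filled red points are above background, open points are not, grey lines join the probe sets of a gene and the dashed line is the threshold. In 14 genes red and open points stand on the same line, and in Efnb1, Sema4a, Plxnb1 and Ntn1 all points are red.

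The arrays also differed for single members. The median SD of log2 signal over the 3 arrays was 0.182 for the 25 guidance genes above background. For all genes above background it was 0.122. The 25 also lay nearer the threshold, at a median of 1.96 log2 units over it, beside 3.22 for all genes above background. The part of signal level in the difference in SD was not tested. Among the 25 the widest ranges were those of Sema6c and Unc5b, both highest on replicate 2, and Plxnb2, highest on replicate 1. Relative to each gene's mean, the median of the 25 was 0.09 log2 units up on replicate 2 and 0.03 and 0.07 down on replicates 1 and 3.

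Promoter sequence is a property that the choice of genes did not use. RefSeq promoter windows (GRCm38.p6) were found for 58 of the 68 guidance genes and 14349 of all 18080 named genes, and the CG dinucleotides (CpG) in the 250 bases before each start were counted, with the median over windows where a gene had several. Over all named genes, promoters of genes above background held a median of 17 CpG and the others 6. Among guidance genes the median was 16 for the 23 above background and 16 for the 35 that were not. With fewer than 10 CpG, 6 of 16 guidance genes (37.5%) were above background, beside 25.4% of all genes. With 10 to under 20 it was 9 of 22 (40.9%, beside 69.2%), and with 20 or more 8 of 20 (40%, beside 74.0%). Of guidance genes not above background 28.6% had fewer than 10 CpG, beside 63.4% of all genes not above background. The counts are small, and the difference was not tested.

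The spread of these promoters is shown by those with the fewest and the most CpG among genes above background, Robo4 and Nrp2, and among the others, Ntn5 and Epha8. Only genes with a single window were considered, and Sema3a, also not above background, tied with Ntn5. The sequences run 5′ to 3′ on the gene's strand up to the base before the start, and capitals mark each CpG.
Robo4, chr9:37401722-37401971, plus strand: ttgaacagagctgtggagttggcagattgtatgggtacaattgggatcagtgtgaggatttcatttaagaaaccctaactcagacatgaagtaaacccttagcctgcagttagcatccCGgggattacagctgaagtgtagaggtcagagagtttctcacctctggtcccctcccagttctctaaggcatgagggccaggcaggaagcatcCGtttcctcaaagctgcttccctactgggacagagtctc
Nrp2, chr1:62703067-62703316, plus strand: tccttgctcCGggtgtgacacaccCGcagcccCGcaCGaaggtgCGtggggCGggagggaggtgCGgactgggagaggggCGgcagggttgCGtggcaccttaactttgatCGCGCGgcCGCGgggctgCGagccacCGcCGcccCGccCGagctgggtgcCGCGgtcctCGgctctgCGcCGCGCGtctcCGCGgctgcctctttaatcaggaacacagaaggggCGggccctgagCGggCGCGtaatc
Ntn5, chr7:45683772-45684021, plus strand: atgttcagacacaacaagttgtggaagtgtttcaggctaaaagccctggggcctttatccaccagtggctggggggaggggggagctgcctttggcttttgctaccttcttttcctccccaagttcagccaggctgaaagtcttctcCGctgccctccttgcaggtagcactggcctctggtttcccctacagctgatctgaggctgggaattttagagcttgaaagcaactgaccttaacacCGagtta
Epha8, chr4:136956817-136957066, minus strand: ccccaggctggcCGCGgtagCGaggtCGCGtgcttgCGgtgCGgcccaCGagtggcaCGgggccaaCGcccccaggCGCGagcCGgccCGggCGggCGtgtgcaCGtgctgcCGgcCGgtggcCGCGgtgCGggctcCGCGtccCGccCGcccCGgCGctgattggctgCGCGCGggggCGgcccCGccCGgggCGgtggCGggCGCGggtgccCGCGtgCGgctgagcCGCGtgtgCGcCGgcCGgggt
The Robo4 window holds 2 CpG and that of Ntn5 also 2, whereas Nrp2 has 32 and Epha8 46, with a GC content of 84.0%. The GC box letters GGGCGG, searched on both strands, occurred in 44 of the 58 guidance genes (75.9%, beside 53.8% of all genes), in 18 of 23 above background (78.3%, beside 67.3% of all such genes) and in 26 of 35 not above it (74.3%, beside 38.5%). The letters TATAAA, also on both strands, occurred in 2 of 58 (3.45%, beside 10.2%). A gene with several windows was counted if any of them held the letters. The median GC content was 65% for guidance genes and 57.8% for all genes, and its part in these shares was not tested. A match is a description of these letters and not a site.

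**Figure D5:**
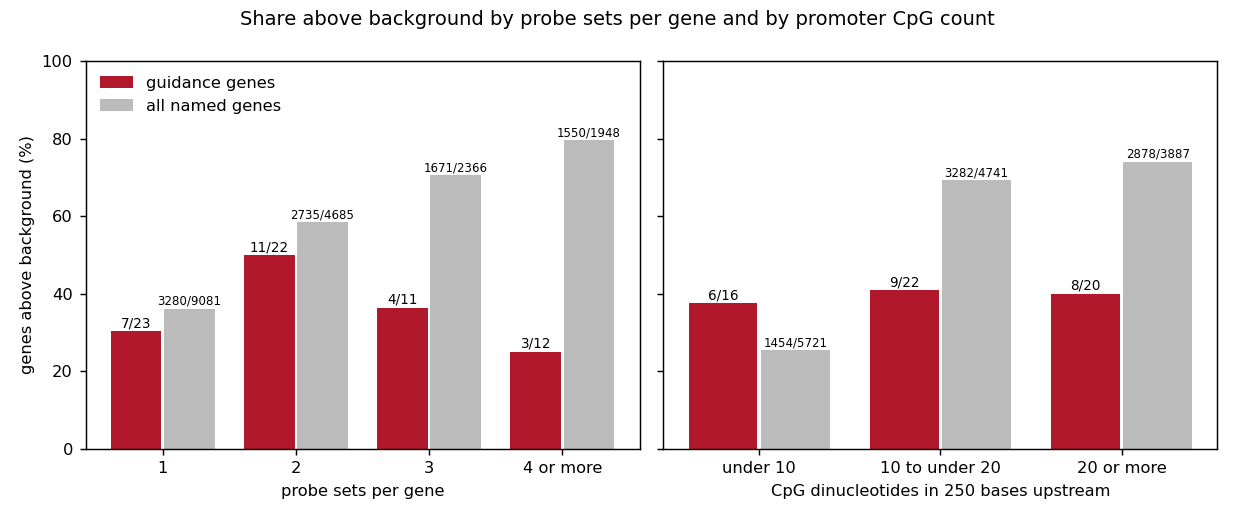
Percentage of genes above background (y axis) for guidance genes (red) and all named genes (grey), by probe sets per gene (left) and by CpG count in the 250 bases upstream of the start (right); counts stand over the bars. The grey bars climb in both panels, to 79.6% and 74.0%, while the red bars stay between 25% and 50%.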

How the data were processed

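The authors deposited linear probe set signal intensities, 1 per probe set and array, made with GCOS 1.4 per the submitters' processing notes; the signal algorithm, detection calls and genome build: not given in the sources used here. Their trimmed mean (2% of probe sets cut at each end) was 250.002 on each array, so the arrays had been scaled, and no further normalization was applied. Symbols came from a platform annotation of 2016; 34945 probe sets had a single symbol, 932 had several and 9160 had none, and those naming several or none were left out of gene counts. All 151 guidance probe sets matched a GRCm38.p6 gene table by gene ID.

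Log2 signal minus log2 threshold was fitted over all probe sets in R 4.3.3 by limma 3.58.1, using lmFit (intercept alone) and eBayes, and the script was tested on simulated data with known levels. The 95th percentile threshold puts about 5 in 100 background probe sets over it on each array by construction. The guidance genes, partner list and markers were chosen with earlier results of these data known. Values on every array are given for members above background, with probe sets on both sides of the call, or within 0.5 log2 units of the threshold; partners are named as the first 4 above background and the first 4 not, in list order. Alternatives changed the threshold, the background probe sets, the choice of probe set, normalization, offset, dim-probe filter, call rule and replicates. The count of 1 group of partners is not reported here, though its genes are in the partner total. The number of arrays limits the precision.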

Additional observations from a re-analysis of the deposited data

How the results depend on the processing

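No paired analysis was possible because all samples form 1 group. Of 133 recomputed counts 117 stayed within 1.5 times the reported one. The guidance total was 20 at the 99th percentile (beside 46.3% of all genes) and 28 at the 90th (53.4%). It was 17 with the probe set chosen by suffix (43.3%), and 21 to 22 with a replicate left out (48.1% to 48.6%). Requiring every probe set of a gene gave 11 guidance genes, with 2 ephrins, 2 semaphorins, 2 plexins and neuropilins, 1 Slit or Robo gene and 1 netrin family gene, and 19 partners. All genes went to 31.3% there, since genes with several probe sets must pass more tests. By suffix, 3 semaphorins and 2 plexins and neuropilins passed, beside 43.3% of all genes. Bacterial control probe sets, with thresholds from 20.6 to 23.9, gave 54 guidance probe sets, beside 55.6% of all single-symbol probe sets. With them 11 semaphorins and 8 plexins and neuropilins passed, beside 60.5% of all genes. The netrin family had 1 gene at the 99th percentile, and 1 without any replicate in turn.

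Of 1020 recomputed single-gene values, 33 lost and 20 gained the call with the sign of the value kept, and 9 changed both call and sign. Another 21 changed sign with no change of call. With the probe set chosen by suffix, Efna2 (-0.76 log2 units), Sema4b (-0.57), Sema4d (-0.57), Sema6c (-0.88) and Sema7a (-4.03) lay below the threshold. With the bacterial controls, Plxnc1 (0.82), Sema3e (0.83), Sema6a (0.79) and Slit2 (0.89) passed. The variance prior that follows intensity, the only alternative chosen after seeing the data, gave 27 guidance genes, beside 52% of all genes.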
